A study of Rattus norvegicus with 2 samples.

Results

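The genes described here encode the core of phosphoinositide 3-kinase (PI3K) and Akt signalling: the class I catalytic subunits Pik3ca, Pik3cb, Pik3cd and Pik3cg, the regulatory subunits Pik3r1 and Pik3r5, and the kinases Akt1, Akt2 and Pdpk1. They were taken by name from the table of all genes. Of the 9 names, 8 were found among 14913 distinct gene names, and Pik3r5 was not analysed here. The study sequenced poly(A)-selected RNA of RBL-2H3, a rat basophilic leukemia cell line used as a model of mast cells and basophils. One wild-type library came from cells with no treatment and 1 wild-type library from cells incubated with IgE, with 20917968 and 26268330 counted reads. Neither a dose, a duration nor an antigen is named in the labels. With 1 library per condition no test across samples could be made, and every value below compares these 2 libraries only.

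Class I PI3K phosphorylates the membrane lipid PIP2 to PIP3, which draws proteins with a lipid-binding PH domain to the plasma membrane. Akt is one of these proteins, and the kinase PDK1, encoded by Pdpk1, phosphorylates it there. In mast cells the pathway acts downstream of the high-affinity IgE receptor and of the growth factor receptor Kit, where it contributes to degranulation, cytokine production and survival. Its activity is set mainly by recruitment, lipids and phosphorylation, none of which RNA counts measure.

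All 8 measured genes were expressed in both libraries, with 936 to 8653 reads per gene and library, and none differed by 2-fold or by 1.5-fold between the libraries. Over the 12102 genes with at least 20 reads, 2.63% were at least 2-fold apart and 7.19% at least 1.5-fold. The log2 folds of IgE over untreated ran from -0.24 for Pik3cd to 0.11 for Pik3ca. The median of the 8 was -0.07, and that of the 6955 genes with 1000 or more reads was 0.00. In sum the 8 genes stood at 1288 CPM without IgE and 1208 CPM with it, where CPM are reads scaled to a common library size. In such bulk RNA, fewer cells expressing a gene and less RNA per cell cannot be told apart.

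**Figure D1:**
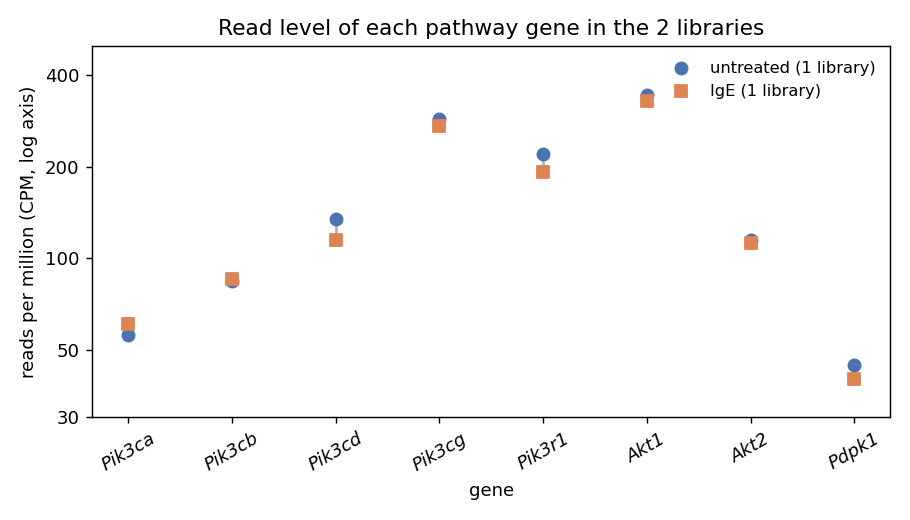
The plot of levels shows CPM on a log axis for each of the 8 measured genes, with a circle for the untreated and a square for the IgE library (1 library each). The 2 symbols lie close together for every gene and are farthest apart for Pik3cd (135 and 114 CPM); CPM are not scaled for transcript length, so heights of different genes are not comparable.

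Among the catalytic subunits, Pik3cd had the lowest log2 fold and Pik3ca the highest. Pik3cd encodes p110delta, which is enriched in leukocytes and is recruited by tyrosine-phosphorylated receptors and adaptors. Without IgE it had 2830 reads and with IgE 2998, or 135 and 114 CPM. The IgE library was the lower one, by 15.1% (log2 -0.24, 95% counting interval -0.31 to -0.16). Pik3cg encodes p110gamma, the leukocyte isoform driven by the beta-gamma subunits of G proteins. It had 6032 and 7159 reads, or 287 and 273 CPM (log2 -0.07, -0.12 to -0.02). Both leukocyte isoforms were thus lower in CPM in the IgE library, Pik3cd by more than Pik3cg. The intervals here and below are exact Clopper-Pearson intervals of the read ratio. They cover counting error only and leave out any variation between cultures.

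The log2 folds of the broadly expressed isoforms were above 0. Pik3ca, which encodes p110alpha, the isoform that insulin and growth factor receptors mainly use, had 1176 and 1588 reads, or 56.0 and 60.6 CPM. Its log2 fold was 0.11 (0.0042 to 0.22), and the lower bound became -0.0050 with library totals in place of the default scaling. Pik3cb, which encodes p110beta, had 1770 and 2233 reads, or 84.3 and 85.3 CPM. That is a log2 fold of 0.02, with an interval from -0.07 to 0.11. Summed, Pik3ca and Pik3cb went from 140.4 to 145.9 CPM (log2 0.06, -0.01 to 0.13), and Pik3cd and Pik3cg from 422.3 to 387.9 CPM (log2 -0.12, -0.16 to -0.08).

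Comparing 2 genes within the same libraries needs no scaling between them. The fold of Pik3ca exceeded that of Pik3cd by 0.35 on the log2 scale, with an exact conditional interval of 0.22 to 0.48. There were 0.53 Pik3ca reads per Pik3cd read with IgE, against 0.42 untreated. Pik3cb exceeded Pik3cd by 0.25 (0.13 to 0.37), and Pik3ca exceeded Pik3cg by 0.19 (0.07 to 0.31). The fold of Pik3cd minus that of Pik3cg was -0.16 (-0.25 to -0.07). For Pik3ca against Pik3cb (0.10, -0.04 to 0.24) and Pik3cb against Pik3cg (0.09, -0.02 to 0.19) the interval included 0. So 4 of the 6 catalytic pairs had an interval without 0, where 48.2% of all pairs of genes with 1000 or more reads did. The intervals are not adjusted for the number of pairs.

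As a share of the reads of the 4 catalytic genes, Pik3cd went from 24.0% (exact binomial interval 23.2% to 24.7%) to 21.4% (20.8% to 22.1%). Pik3ca went from 9.96% (9.42% to 10.5%) to 11.4% (10.8% to 11.9%), and Pik3cb from 15.0% to 16.0%. Pik3cg took 51.1% of these reads without IgE and 51.2% with it. Shares of a fixed total must offset one another, so they do not show which gene changed. The intervals of Pik3cb overlapped (14.4% to 15.6% and 15.4% to 16.6%). The share of Pik3cg moved by 0.13 points, as its log2 fold (-0.07) was near that of the 4 genes summed (-0.08). These are shares of reads without a correction for transcript length, and they do not rank the isoforms by molecules.

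**Figure D2:**
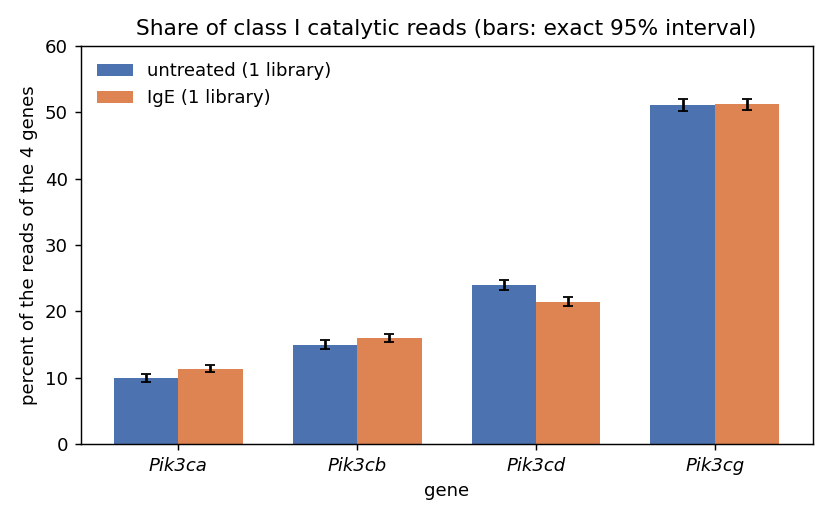
Bars give each gene's percent of the reads of the 4 class I catalytic genes in the untreated and the IgE library (1 library each), with exact 95% binomial intervals as error bars. The 2 libraries' intervals are apart for Pik3cd (24.0% and 21.4%) and Pik3ca (9.96% and 11.4%) and overlap for Pik3cb and Pik3cg.

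Pik3r1 encodes p85alpha and its shorter forms, which stabilise p110alpha, p110beta and p110delta and bring them to phosphotyrosines. It had 4630 reads untreated and 5019 with IgE, or 220.6 and 191.7 CPM. In CPM the IgE library was lower by 13.1% (log2 -0.20, -0.26 to -0.15). Its fold minus that of Pik3cd was 0.03, with an interval that included 0 (-0.06 to 0.13), while it lay below those of Pik3ca (-0.32, -0.44 to -0.19), Pik3cb (-0.22, -0.33 to -0.11) and Pik3cg (-0.13, -0.21 to -0.05). So 3 of these 4 pairs had an interval without 0, where 48.2% of all pairs of genes with 1000 or more reads did. Pik3r6, a partner of p110gamma like Pik3r5, had 1020 and 1236 reads (log2 -0.04, -0.16 to 0.08). Of the reads of Pik3r1, Pik3r2, Pik3r3 and Pik3r6 together, Pik3r1 took 73.8% (72.7% to 74.9%) untreated and 71.8% (70.8% to 72.9%) with IgE.

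Akt1 and Akt2, the serine and threonine kinases that carry the signal onward, were close to level. Akt1 had 7248 and 8653 reads, or 345.4 and 330.5 CPM. Its log2 fold was -0.06 (-0.11 to -0.02), 4.32% lower. Akt2 had 2405 and 2938 reads, or 114.6 and 112.2 CPM. Its log2 fold of -0.03 had an interval that included 0 (-0.11 to 0.05). The ratio of the 2 genes was close in the 2 libraries, with Akt1 at 75.1% (74.2% to 75.9%) of their summed reads without IgE and 74.7% (73.9% to 75.4%) with it.

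Pdpk1, the kinase that phosphorylates Akt in its activation loop, had the fewest reads of the 8 genes, 936 and 1048, or 44.6 and 40.0 CPM. The IgE library was lower by 10.3% in CPM (log2 -0.16, -0.28 to -0.03). None of the 3 differences among the folds of Akt1, Akt2 and Pdpk1 had an interval without 0, where 48.2% of all pairs of genes with 1000 or more reads did. With only 3 pairs this says little.

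The same values can be read against all genes. Of the 8 genes, 5 had a counting interval below 0, 1 above and 2 that included it. Among the 6955 genes with 1000 or more reads, 49.6% had an interval without 0, 24.4% lying below and 25.2% above. With library totals Pik3ca joined those that included 0, and the count below 0 was 5 under each of the 4 scalings run. For Pik3cd, 10.9% of those genes lay at least as far from 0, and 4.04% had a lower log2 fold. Pik3r1 was matched or passed in distance from 0 by 15.7%, Pdpk1 by 27.2%, Pik3ca by 41.7%, Pik3cg by 60.2%, Akt1 by 64.5%, Akt2 by 82.0% and Pik3cb by 90.7%. In the authors' deposited table the adjusted p was 1 for all 8, and the unadjusted p ran from 0.239 (Pik3cd) to 0.977 (Pik3cb). An adjusted p of 1 is the usual value in the authors' deposited table, held by 95.2% of its 14913 names, and 0.275% had one under 0.05. The replicate spread behind those p-values cannot come from 1 library per condition.

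**Figure D3:**
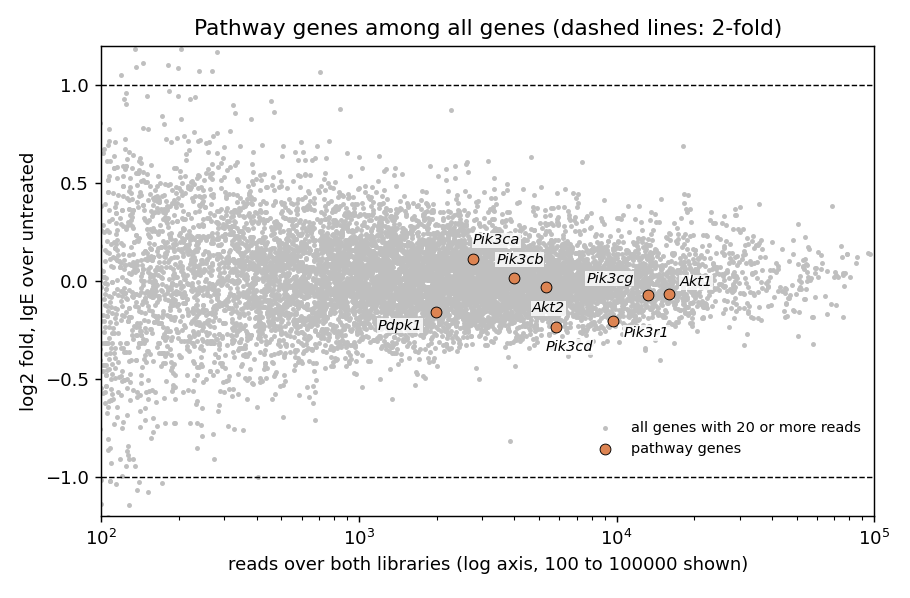
Each grey point is 1 gene with at least 20 reads, placed by its reads over both libraries (log axis) and its log2 fold of IgE over untreated, with both axes trimmed, and the orange points are the 8 pathway genes. All 8 lie inside the cloud and far from the dashed 2-fold lines, with Pik3cd (-0.24) and Pik3r1 (-0.20) at its lower side.

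For Pik3r1 and Pik3cg, the upstream sequence is shown to set the regulatory gene beside a leukocyte-restricted catalytic gene. The RefSeq promoter table (build GRCr8) held 7 of the 8 genes, and these are the 2 for which at least 100 bases of the window lie outside the annotated gene. Only those bases are printed, 5′ to 3′ on the gene's strand. Capitals mark GGGCGG, the GC box bound by Sp1-family factors, or its reverse complement CCGCCC. The Pik3r1 stretch is chr2:34697661-34697910 and the Pik3cg stretch chr6:54529564-54529759, both on the minus strand.
Pik3r1: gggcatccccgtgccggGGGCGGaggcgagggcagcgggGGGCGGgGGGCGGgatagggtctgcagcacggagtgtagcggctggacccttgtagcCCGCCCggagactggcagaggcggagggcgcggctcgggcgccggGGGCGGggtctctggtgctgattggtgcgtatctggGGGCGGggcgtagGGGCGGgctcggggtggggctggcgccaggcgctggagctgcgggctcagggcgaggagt
Pik3cg: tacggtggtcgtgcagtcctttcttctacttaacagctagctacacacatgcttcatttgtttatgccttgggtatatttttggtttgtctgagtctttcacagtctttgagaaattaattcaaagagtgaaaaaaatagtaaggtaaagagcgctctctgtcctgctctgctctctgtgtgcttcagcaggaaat

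The Pik3r1 stretch of 250 bases held 27 CpG dinucleotides and 7 GC boxes, and the Pik3cg stretch of 196 bases held 3 and 0. In the 250 bases before the annotated start, 30.5% of the 33469 windows in the table had a GC box, and the median window had 5 CpG. The Pdpk1 window, which starts inside the annotated gene and is not printed, held 31 CpG and 5 GC boxes. Those of Pik3ca, Pik3cd, Akt1 and Akt2 held 1 to 5 CpG and no GC box. The core motif GTAAAC of FoxO factors, searched on both strands with no overlap with the GC box, was in 7% of windows and in neither printed stretch. The windows of Pik3ca and Akt2, which start inside the annotated genes, held 1 each. These are letters in a reference sequence, and nothing in the RNA counts measured binding or promoter use.

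The remaining subunits were close to level. Of a list of 9 further PI3K genes, 8 were measured, 0 were at least 2-fold higher (1.33% of all genes were) and 0 at least 2-fold lower (1.3%). All 8 intervals included 0, and the log2 folds ranged from -0.10 to 0.06 with a median of -0.04. Over all 12102 genes 18.6% of intervals lay below 0 and 20% above. Among genes with 1000 or more reads, 24.4% and 25.2% did. Pik3r3 (140 and 163 reads, log2 -0.10) and Pik3c3, the class III enzyme of endosomes and autophagy (524 and 613 reads, -0.09), were the lowest. Pik3ap1, an adaptor that binds p85 (214 and 278 reads, 0.06), and Pik3c2b, a class II enzyme (369 and 471 reads, 0.03), were the highest. These genes had fewer reads than most of the 8, so their intervals were wider.

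**Figure D4:**
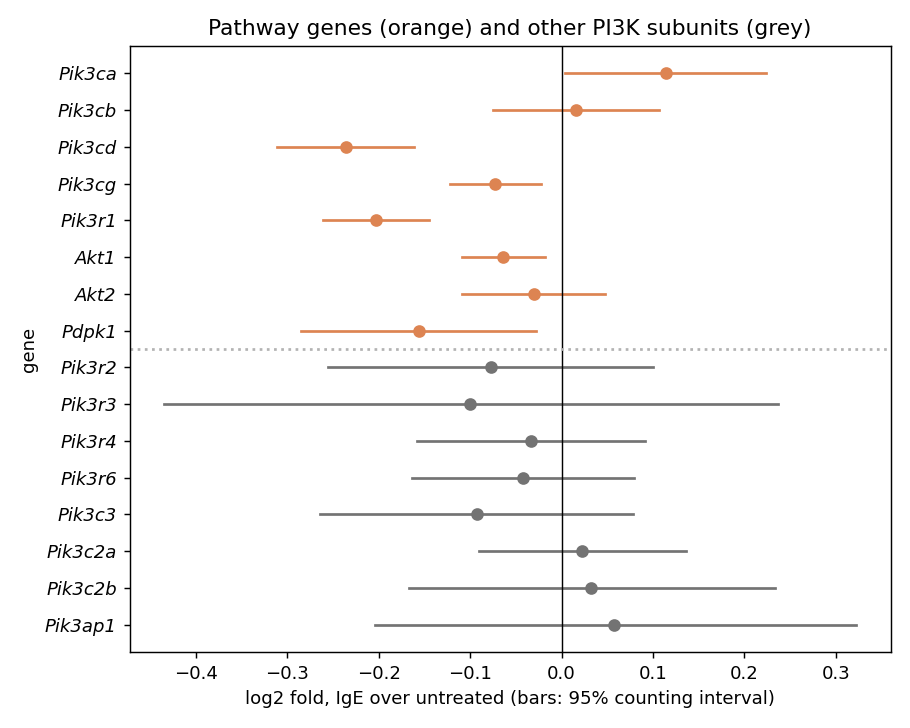
Points are log2 folds of IgE over untreated and horizontal bars their 95% counting intervals, for the 8 pathway genes (orange, above the dotted line) and 8 further PI3K genes (grey). Pik3cd, Pik3cg, Pik3r1, Akt1 and Pdpk1 have bars left of 0, Pik3ca has a bar just right of it, and all grey bars cross 0.

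Genes listed as lipid phosphatases and inhibitors also differed little, and not all of them act on PIP3. Of 21 on this list 19 were measured, and none reached 2-fold (2.63% of all genes did). Their median was -0.05, with 6 intervals below 0 and 4 above, where 18.6% and 20% of all 12102 genes had such intervals. Among genes with 1000 or more reads, 24.4% and 25.2% did. Phlpp1, which dephosphorylates Akt, had 1127 and 1230 reads, or 53.7 and 47.0 CPM, and was the lowest (log2 -0.19, -0.31 to -0.08). Inppl1, which encodes the phosphatase SHIP2, was next (-0.15, -0.25 to -0.05). Inpp5d, the SHIP1 phosphatase of blood cells, stood at 284.3 and 275.6 CPM (-0.04, -0.09 to 0.0048). Pik3ip1, a membrane protein that inhibits class I PI3K, was the highest, with 750 and 1165 reads, or 35.7 and 44.5 CPM (0.32, 0.18 to 0.45). Inpp5a, which acts on soluble inositol phosphates, followed (0.27, 0.06 to 0.49).

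Upstream, 19 of 25 receptors and adaptors that recruit PI3K were measured, with a median of -0.02. The intervals of 6 lay above 0 and those of 4 below, where 20% and 18.6% of all 12102 genes had such intervals. Among genes with 1000 or more reads, 25.2% and 24.4% did. Irs1, an insulin receptor substrate that binds p85, was the 1 gene of the list at least 2-fold higher (1.33% of all genes were), on 6 and 31 reads (log2 1.97, 0.77 to 3.60). A prior of 5 counts lowered this value to 1.49. Fcer1a, the IgE-binding chain of the receptor, was second highest (0.34, 0.30 to 0.37). Irs2 (-0.14, -0.28 to 0.01) and the adaptor Shc1 (-0.09, -0.17 to -0.0038) were lowest.

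Of 25 genes listed as PIP3-binding effectors, not all of which bind PIP3 directly, 23 were measured, with a median of -0.07. Their intervals lay below 0 for 9 and above for 3, against 18.6% and 20% of all genes. The shares were 24.4% and 25.2% for genes with 1000 or more reads. Sgk2, a kinase related to Akt, was the 1 gene at least 2-fold lower (1.3% of all genes were), on 53 and 29 reads (-1.17, -1.90 to -0.51). Adap1 (164 and 171 reads, -0.26, -0.58 to 0.06) followed. At the other end stood the exchange factor Vav3, on 18 and 34 reads (0.59, -0.27 to 1.51), and Sgk3, a further relative of Akt, on 583 and 879 reads (0.27, 0.12 to 0.43).

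Downstream, 21 of 24 genes of the mTOR complexes and their regulators were measured, none 2-fold apart (2.63% of all genes were), with a median of -0.04. Of their intervals 7 lay below 0 and 2 above, against 18.6% and 20% of all genes. For genes with 1000 or more reads these shares were 24.4% and 25.2%. The S6 kinase gene Rps6kb2 was lowest (741 and 749 reads, -0.30, -0.45 to -0.16), followed by Akt1s1, which encodes the mTORC1 inhibitor PRAS40 (478 and 500 reads, -0.25, -0.44 to -0.07). Rps6, a ribosomal protein with near-identical copies in the genome and so an uncertain count, was highest (0.22, 0.20 to 0.25), and Rheb, the GTPase that activates mTORC1, was next (0.17, 0.11 to 0.24).

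Of 25 genes for direct Akt substrates 23 were measured, with a median of -0.09, 9 intervals below 0 and 3 above. Over all genes the shares were 18.6% and 20%, and over those with 1000 or more reads 24.4% and 25.2%. Akt1s1, also on this list, and Foxo3 (1261 and 1354 reads, -0.22, -0.33 to -0.10) were lowest. Foxo1, which like Foxo3 encodes a transcription factor that Akt keeps out of the nucleus, had 946 and 1048 reads (-0.17, -0.30 to -0.04). Nos3, endothelial nitric oxide synthase, was the 1 gene at least 2-fold higher (1.33% of all genes were), on 9 and 26 reads (1.17, 0.07 to 2.49), and under 2-fold with a prior of 5 counts (0.91). The cell cycle inhibitor Cdkn1a was next (0.15, 0.06 to 0.25).

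FoxO target genes are held down where Akt is active. Of 28 such genes 22 were in the table and 21 had at least 20 reads, with 11 above and 10 below 0. The median was 0.01, or -0.01 without the most distant gene. The intervals of 7 lay above 0 and that of 1, Sesn3 (1540 and 1632 reads, -0.24, -0.34 to -0.13), below, where 20% of all genes lay above and 18.6% below. Among genes with 1000 or more reads, 25.2% lay above and 24.4% below. S1pr1, a sphingosine phosphate receptor, was the 1 gene at least 2-fold higher (against 1.33% of all genes), on 4 and 21 reads (1.96, 0.51 to 4.08; 1.33 with a prior of 5 counts). Bcl2l11, which encodes the death-promoting protein Bim, had 828 and 1362 reads, or 39.5 and 52.0 CPM (0.40, 0.27 to 0.52). Irs2 was second lowest. Pik3ip1 is on this list as well, and 6 measured genes stand on more than 1 of the pathway lists.

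**Figure D5:**
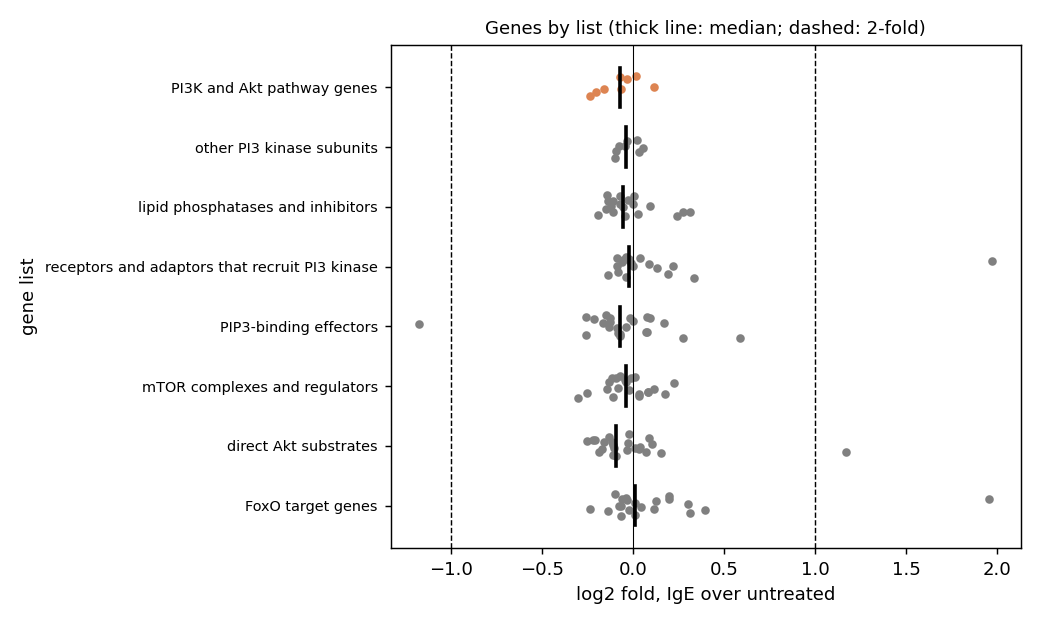
Each point is the log2 fold of 1 gene with at least 20 reads, by list, with the list's median as a thick line and 2-fold marked by dashed lines. The 8 pathway genes (orange) and the medians of all lists lie near 0, and the 4 points beyond 2-fold are Irs1, Sgk2, Nos3 and S1pr1, each with 82 or fewer reads over both libraries.

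The labelled cell type was checked against its markers. Of 17 mast cell and basophil genes, 15 were measured, among them Kit (1168 and 1136 CPM), Gata2 (2479 and 2303 CPM), Ms4a2 (1252 and 1375 CPM) and Cpa3 (563.4 and 677.2 CPM). Their summed level was 9604 CPM untreated and 9906 CPM with IgE. Levels within this list were uneven, with Cma1 at only 5.96 and 7.22 CPM and Tph1 at 12.4 and 11.5 CPM. Of 14 macrophage markers 4 were in the table, summing to 71.5 and 60.8 CPM, of which the integrin gene Itgam gave 66.0 and 57.6 CPM. The scavenger receptor gene Msr1, 1 of the 4, was at least 2-fold lower with IgE (1.3% of all genes were), on only 26 and 7 reads (log2 -2.13, -3.66 to -0.97). Of 12 neutrophil markers 2 were (1.24 and 1.49 CPM, with Camp at 0), of 14 lymphocyte markers 4 (113 and 122 CPM), and of 13 fibroblast and epithelial markers 3 (426.2 and 400.5 CPM). Of these 3, Col3a1 gave the most, on 5904 reads untreated and 6619 with IgE. Thy1 followed on 3034 and 3866 reads. The keratin gene Krt8 had only 5 and 1 reads, under the minimum of 20 (log2 -2.13, -8.21 to 0.52). Nkg7 made up most of the lymphocyte sum, with 2042 reads untreated and 2766 with IgE. Col3a1, Thy1 and Nkg7 were clearly expressed in both libraries, although listed for other cell types. A marker name missing from the table does not show that the gene is silent. The sums thus cover unlike parts of the lists, and the check says little about other cell types. The part of the cell mixture or of RNA quality in the small differences above was not tested.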

How the data were processed

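The authors deposited raw read counts per gene name for both libraries, beside a log2 fold change and p-values, plain and adjusted, of their making, per the file headers. Tools in the submitters' processing notes are HISAT2 2.1.0, fastp 0.23.0 and DESeq2 1.18.1, and the build is rn6, with no role given. For the counting tool and its strand setting, the sources used here give nothing. Of 16990 rows, 2077 repeated a listed name with identical values and were dropped.

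Counts were scaled with edgeR 4.0.16 (R 4.3.3) by TMM over all genes with a read, and log2 CPM were taken with a prior of 0.5. The minimum was 20 reads summed over the libraries. A count of 3 reads, taken as the floor, is 0.143 CPM untreated and 0.115 CPM with IgE. Intervals are at the 95% level. They treat each read as a separate molecule, which is not known to hold. The calculation was tested on simulated data.

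The members and the 7 pathway and 5 marker lists were chosen with earlier results of these data known. Text names all members, the 2 highest and 2 lowest genes of each pathway list, any list gene at least 2-fold apart, and Foxo1 and Inpp5d. Some genes of these lists are not reported here, and the lists are counted without them. Other marker genes and Pik3r6 were named after their values were seen. Likeness of pattern was not computed, since 2 libraries give 1 difference.

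Levels per coding length were planned, but no transcript or protein lengths were used here, so read shares are given. In RefSeq, Pik3cd, Pik3cg and Akt2 overlap other genes and Akt2 has a pseudogene, Akt2-ps1, from whose reads theirs cannot be told apart. Alternatives were library totals, DESeq2 1.42.0 size factors, a median scaling, a prior of 5 counts, no minimum or one of 100 reads, a 1.5-fold rule, an interval rule, and repeated rows kept.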

Additional observations from a re-analysis of the deposited data

How the results depend on the processing

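All 48 alternative log2 folds of the 8 measured pathway genes stayed within the counting interval and kept their sign, and the largest shift was 0.0092. Changing the minimum could not move these folds, because the scaling does not depend on it and all 8 genes exceed it. A change of scaling moves every gene by nearly the same amount. The 48 values are therefore not 48 separate checks. The 42 alternative medians of the pathway lists shifted by at most 0.017, and no counting interval was computed for a median. The FoxO target median changed sign in 3 of them, to -0.0057 with no minimum, with a minimum of 100 reads and without its most distant gene. The genes at least 2-fold apart, 161 higher and 157 lower, became 104 and 99 when the prior was 5 counts. With no minimum they were 855 and 875, and with a minimum of 100 reads 21 and 15. A 1.5-fold rule gave 443 and 427, and an interval without 0 gave 2415 and 2250. By construction the minimum and the prior touch genes with few reads, and the looser rules call more genes. Shares per coding length were not run. No paired analysis was possible because there was a single library per condition, so that none could be left out either. Counting error alone gives the 8 genes intervals 0.09 (Akt1) to 0.26 (Pdpk1) wide on the log2 scale. Differences between cultures were not measured.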
